A study of Mus musculus with 2 samples.

Results

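Fxyd2 and Epcam are genes of the kidney's epithelial tubes, described here in nephron progenitor cells with and without p53. They were chosen by gene symbol and are 2 of the 10617 distinct symbols in the authors' deposited table, and both densities of both genes were in view when they were chosen, so their KO and WT values are a description. The cells were sorted from kidneys of mouse embryos at embryonic day 15.5. The knockout group (KO) had the genotype Six2CreGFP+;p53f/f, so Cre under the Six2 gene's control removes floxed Trp53 in Six2-expressing cells. The wild-type group (WT) was Six2CreGFP+;p53+/+. Both groups carry the Six2CreGFP transgene, whose GFP marks the cells, and both are of a mixed CD1 and C57BL background. Each group has 1 library, made from total RNA of sorted cap mesenchyme. The number of embryos behind a library is not given in the sources used here.

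Fxyd2 codes for the gamma subunit of the sodium pump (Na,K-ATPase). This small membrane protein of the FXYD family binds the pump's alpha and beta subunits and tunes its affinity for sodium and potassium, and in the adult kidney it lies on the basolateral side of tubule cells. Epcam codes for a cell surface glycoprotein of simple epithelia that holds neighbouring cells together and associates with claudins at tight junctions. Nephron progenitors are mesenchymal cells. When they condense and turn into epithelium they form the renal vesicle and then the S-shaped body, from which podocytes, proximal tubule, loop of Henle and distal tubule arise. The ureteric bud, which induces the progenitors, is an epithelium from the start.

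Fxyd2 (ENSMUSG00000059412) lies on the plus strand of chromosome 9 from 45403138 to 45410278 in the deposited coordinates, which match GRCm38. Epcam (ENSMUSG00000045394) lies on the plus strand of chromosome 17 from 87635979 to 87651106. In GENCODE vM21 no other annotated gene overlaps either of them and neither has a pseudogene named after it. The deposited value is a read density, and its values fit RPKM, in which reads are divided by the length of the gene and the depth of the library. Both Fxyd2 densities came out as whole reads only at gene lengths that are multiples of 316 bases, among lengths up to 5000. The annotated Fxyd2 transcript whose ends equal the deposited ones has 6 exons and 632 bases. At that length the densities stand for 122 reads in KO and 1092 reads in WT. The Epcam transcript with the deposited ends has 10 exons and 2040 bases and gives 1224 reads in KO and 1972 in WT. Its densities came out as whole reads at multiples of 30 bases, 166 lengths up to 5000. The whole-read rule thus fixes the Epcam length less closely than that of Fxyd2. GENCODE vM21 holds 13 transcripts of Fxyd2, with 4005 bases of exon in all, and 5 of Epcam, with 2195 bases.

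The 250 bases upstream of the annotated Epcam start were taken from RefSeq (GRCm38.p6, plus strand, chr17:87635729-87635978). They are shown because the E-box bound by the Snail and Zeb repressors of epithelial genes can be read in them. Capitals mark the letters CACCTG on either strand.
Epcam upstream: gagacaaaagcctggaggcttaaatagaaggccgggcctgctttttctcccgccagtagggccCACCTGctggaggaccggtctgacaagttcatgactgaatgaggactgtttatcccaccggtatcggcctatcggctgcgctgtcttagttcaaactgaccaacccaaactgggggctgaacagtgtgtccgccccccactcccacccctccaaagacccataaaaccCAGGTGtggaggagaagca
The first E-box begins 187 bases before the start on the plus strand, and the second, on the minus strand, begins 19 bases before it. An E-box of these letters on either strand is in 17.2% of the 32851 RefSeq promoters cut to the same 250 bases. The letters GGGCGG of a GC box occur once, on the minus strand, as they do in 32.7% of promoters at least once. No p53 half-site, searched on both strands, is in the Epcam window, and 7.13% of promoters hold one. These matches describe letters and do not show binding. Of the repressor genes, Snai1 was at 89.5%, Zeb2 at 82.9% and Zeb1 at 108% of its WT level, all within 1.5-fold. Snai2 is not in the deposited table and is not analysed here. Whether any of these repressors acts on Epcam in these cells was not tested. Of the 2 genes, 1 (Epcam) matched the promoter table.

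Fxyd2 was at 2.25 RPKM in the KO library and 18.9 RPKM in the WT library. The KO level was 11.9% of the WT level, with an exact (Clopper-Pearson) 95% interval of 9.79% to 14.4% that covers counting error only. It is an 8.40-fold lower density in KO (interval 6.96 to 10.2). In rank by density, Fxyd2 was gene 7272 in KO and gene 2877 in WT among the 10617. With 1 library per group there is no replicate spread, so no test of genotype can be made for this or any other gene. In bulk RNA of sorted cells, fewer cells of a type and less RNA per cell cannot be told apart.

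Epcam was at 7.01 RPKM in KO and 10.6 RPKM in WT. Its KO level was 66.1% of the WT level (interval 61.5% to 71.0%), a 1.51-fold lower density. It was gene 5329 by density in KO and gene 4410 in WT. The intervals of Fxyd2 and Epcam do not overlap. In KO, Epcam had the higher density of the pair, and in WT Fxyd2 had.

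Differences between the libraries were also measured as log2(KO + 1) minus log2(WT + 1), which understates folds of low genes. Both genes lie over the floor used here, the median of mean density (7.30 RPKM). They pass it through their WT density, as Fxyd2 (2.25 RPKM) and Epcam (7.01 RPKM) were both under it in KO. Their places among genes over the floor are therefore a description. On the log2 scale Fxyd2 was at -2.62 and Epcam at -0.53. The median difference was -0.072 over the 5309 genes that pass the floor. A difference of 1.5-fold or more was seen in 128 of them (2.41%) lower in KO and in 35 (0.659%) higher in KO. Centring on that median gives 100 lower and 54 higher, and the authors' library scaling 104 lower and 49 higher. Fxyd2 is among the lower genes under each of these, and 5 genes over the floor, or 6 of all listed genes, had a lower value. Epcam is not among the 128, and 147 genes over the floor, or 691 of all listed genes, had a lower value. Without the added 1, its 1.51-fold difference passes 1.5-fold, as it does for 142 genes (2.67%) lower in KO and 41 (0.772%) higher. Of all listed genes 5.49% were lower by 1.5-fold and 0.951% higher, and of those under the floor 8.57% and 1.24%. Without the added 1, 42.5% of the genes under the floor were lower by 1.5-fold. Of any size, 63.9% of all listed genes and 71.9% of those under the floor were lower in KO. A KO level at or under 11.9% of WT, that of Fxyd2, was found in 3.22% of all listed genes, in 0.113% of those over the floor and in 6.33% of those under it.

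In the authors' deposited table, Fxyd2 is 8.08-fold and Epcam 1.45-fold lower in KO, after a further library scaling of 1.04. Both have a corrected p-value of 0 there, which compares 2 libraries and not the genotypes. The table holds only genes with a corrected p-value under 0.05. A low gene therefore reached it only if its libraries differed, and names of a list that are not in it are not analysed here. For this reason counts within lists below are read beside the shares over the whole table and do not support a direction.

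**Figure D1:**
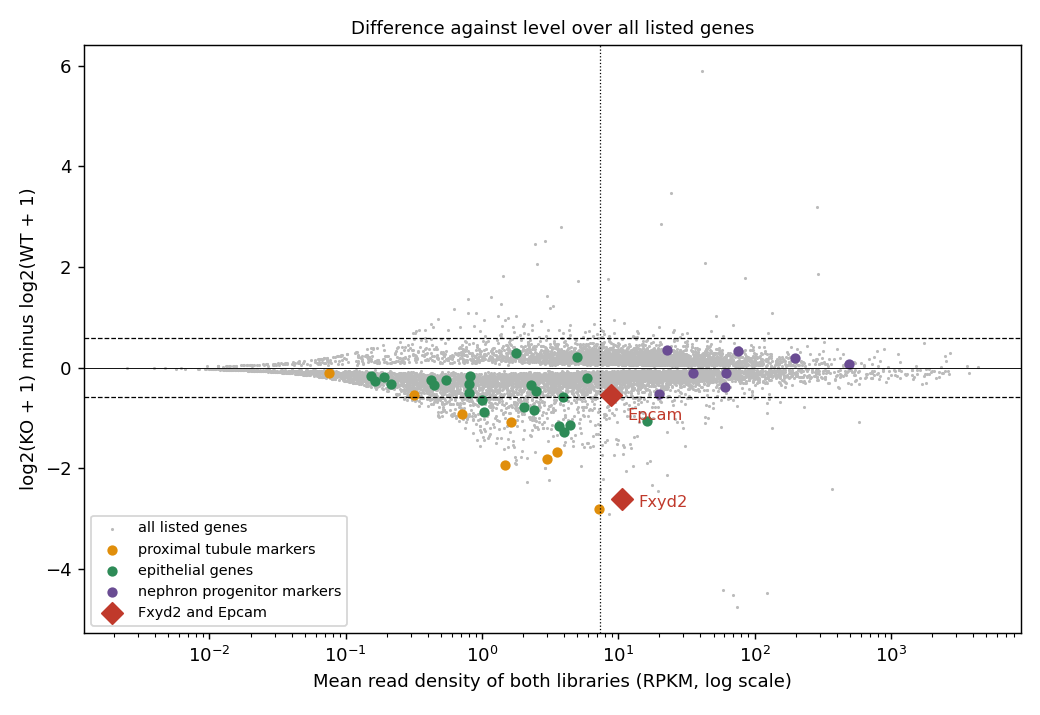
Each grey point is a gene of the deposited table, with the mean read density of both libraries (RPKM, log scale) on the x axis and log2(KO + 1) minus log2(WT + 1) on the y axis. Dashed lines mark 1.5-fold and the dotted line the floor of 7.30 RPKM. Fxyd2 (-2.62) lies far below the cloud at its level near the proximal tubule marker Slc34a1 (-2.80), and Epcam (-0.53) lies inside the lower 1.5-fold line.

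The libraries were checked against their labels. Trp53, the floxed gene, was at 5.38 RPKM in KO and 33.9 RPKM in WT over its whole gene model. All 8 listed nephron progenitor markers are in the table, all over the floor. Their summed density, of which Six2 is the largest part, was 992 RPKM in KO and 947 RPKM in WT. None of the 8 differed by 1.5-fold, beside 2.41% lower and 0.659% higher of genes over the floor. Their KO levels ran from 68.1% to 128% of WT. Six2 was at 509 RPKM in KO and 482 RPKM in WT, and Cited1 at 16.1 RPKM in KO and 23.6 RPKM in WT. The sort itself selects for Six2. Genes at 0 in the other library imply a depth of 85640522 reads in KO and 91224360 reads in WT.

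Of 7 FXYD genes, 3 are in the table. All 3 were lower in KO, by different amounts, beside 63.9% of all listed genes. Fxyd6, an FXYD gene of nervous tissue and other organs, was at 308 RPKM in KO and 378 RPKM in WT, 81.6% of the WT level. Its gene ends 6980 bases before Fxyd2 starts on the same strand. Of the 3 in the table, Fxyd6 had the highest density in both libraries. Fxyd7, known from brain, was under the floor at 0.137 RPKM in KO and 1.31 RPKM in WT, 10.4% of the WT level. That percentage rests on an estimated 8 reads in KO and 83 reads in WT. Fxyd1, Fxyd3, Fxyd4 and Fxyd5 are not analysed here.

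Of 8 sodium pump subunits, 6 are in the table and 1 of these was lower by 1.5-fold or more, beside 5.49% of all listed genes. This was Atp1b1, the beta subunit of most epithelia, at 8.77 RPKM in KO and 19.7 RPKM in WT (44.5% of WT). Its counterpart Atp1b3 was at 79.5 RPKM in KO and 75.8 RPKM in WT. Atp1b2, another beta subunit gene, was at 1.41 RPKM in KO and 1.95 RPKM in WT. Of these beta subunit genes, Atp1b1 was past 1.5-fold lower in KO, as Fxyd2 was, and Atp1b3 and Atp1b2 were not.

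Within 500 kb of Fxyd2, 7 other genes are in the table. Beside 5.49% lower and 0.951% higher of all listed genes, none of the 7 was 1.5-fold different on the log2(density + 1) scale. The 4 over the floor ran from 81.6% of WT for Fxyd6 to 89.6% for Cep164. Of the 3 under the floor, Mpzl3 was at 121% of WT, and the others differed by more as a ratio. Dscaml1, the nearest in the table after Fxyd2, was at 0.0369 RPKM in KO and 0.0986 RPKM in WT (37.4%), and Il10ra had 6 reads in KO and 27 reads in WT (23.7%, interval 7.99% to 58.5%). Around Epcam, 6 genes are in the table, at 80.9% to 117% of WT. The nearest on either side were Calm2, a calmodulin gene, at 143 RPKM in KO and 122 RPKM in WT, and Msh6, a mismatch repair gene, at 45.8 RPKM in KO and 48.2 RPKM in WT.

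The proximal tubule markers had a median KO level near that of Fxyd2 relative to WT, while their single values ran from 1.17% to 31.1%. All 8 are in the table, all under the floor, and all 8 were lower in KO, beside 71.9% of listed genes under the floor. A difference of 1.5-fold or more was seen in 6 of them, beside 8.57%, and 2 had a KO level at or under the percentage of Fxyd2, beside 6.33%. Their summed density was 4.03 RPKM in KO and 31.9 RPKM in WT, and the median KO level was 14.8% of WT, beside 11.9% for Fxyd2. The listed leukocyte markers had a like median, 14.6%. Slc34a1, the sodium phosphate cotransporter of the brush border, was at 1.07 RPKM in KO and 13.4 RPKM in WT. Aqp1, a water channel, was at 0.765 RPKM in KO and 5.22 RPKM in WT. Its KO level was 14.7% of WT with an interval of 12.4% to 17.2%, which overlaps that of Fxyd2. Hnf4a, the transcription factor needed for proximal tubule identity in mice, was at 1.16 RPKM in KO and 5.88 RPKM in WT (19.8%, interval 17.9% to 21.8%). The endocytic receptor gene Lrp2 (megalin) was at 0.703 RPKM in KO and 2.58 RPKM in WT (27.2%, interval 25.4% to 29.2%). The gluconeogenic gene Fbp1 was lowest, with 5 reads in KO and 455 reads in WT (1.17%, interval 0.378% to 2.75%). So Fxyd2 lay between Fbp1 and Hnf4a, beyond counting error on both sides.

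Markers of the loop of Henle and distal tubule, where FXYD2 takes part in magnesium reabsorption in humans, were lower in level than Fxyd2 in both libraries. All 5 of the 8 listed that are in the table were below 1 RPKM. Slc12a1, the cotransporter of the thick ascending limb, was at 0.207 RPKM in KO and 0.536 RPKM in WT (38.5%, interval 30.4% to 48.5%). Cldn19 was at 0.123 RPKM in KO and 0.429 RPKM in WT (28.7%, interval 20.2% to 40.1%). Both intervals lie above that of Fxyd2. Cldn16, with 3 reads in KO and 16 reads in WT, had an interval of 3.73% to 69.8%, which overlaps it. Slc12a3, the cotransporter of the distal convoluted tubule, was at 0.0106 RPKM in KO and 0.0928 RPKM in WT, 11.4% of WT. With an estimated 10 reads in KO and 94 reads in WT, it cannot be ranked against the 11.9% of Fxyd2. Kcnj1, a potassium channel gene, was at 34.3%. Of 12 genes of distal magnesium transport, 6 are in the table, all under the floor. All 6 were lower in KO, beside 71.9% of listed genes under the floor, and 1, the potassium channel gene Kcnj16, was past 1.5-fold, beside 8.57%. Cnnm2, which is needed for magnesium handling, was at 3.19 RPKM in KO and 3.91 RPKM in WT.

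**Figure D2:**
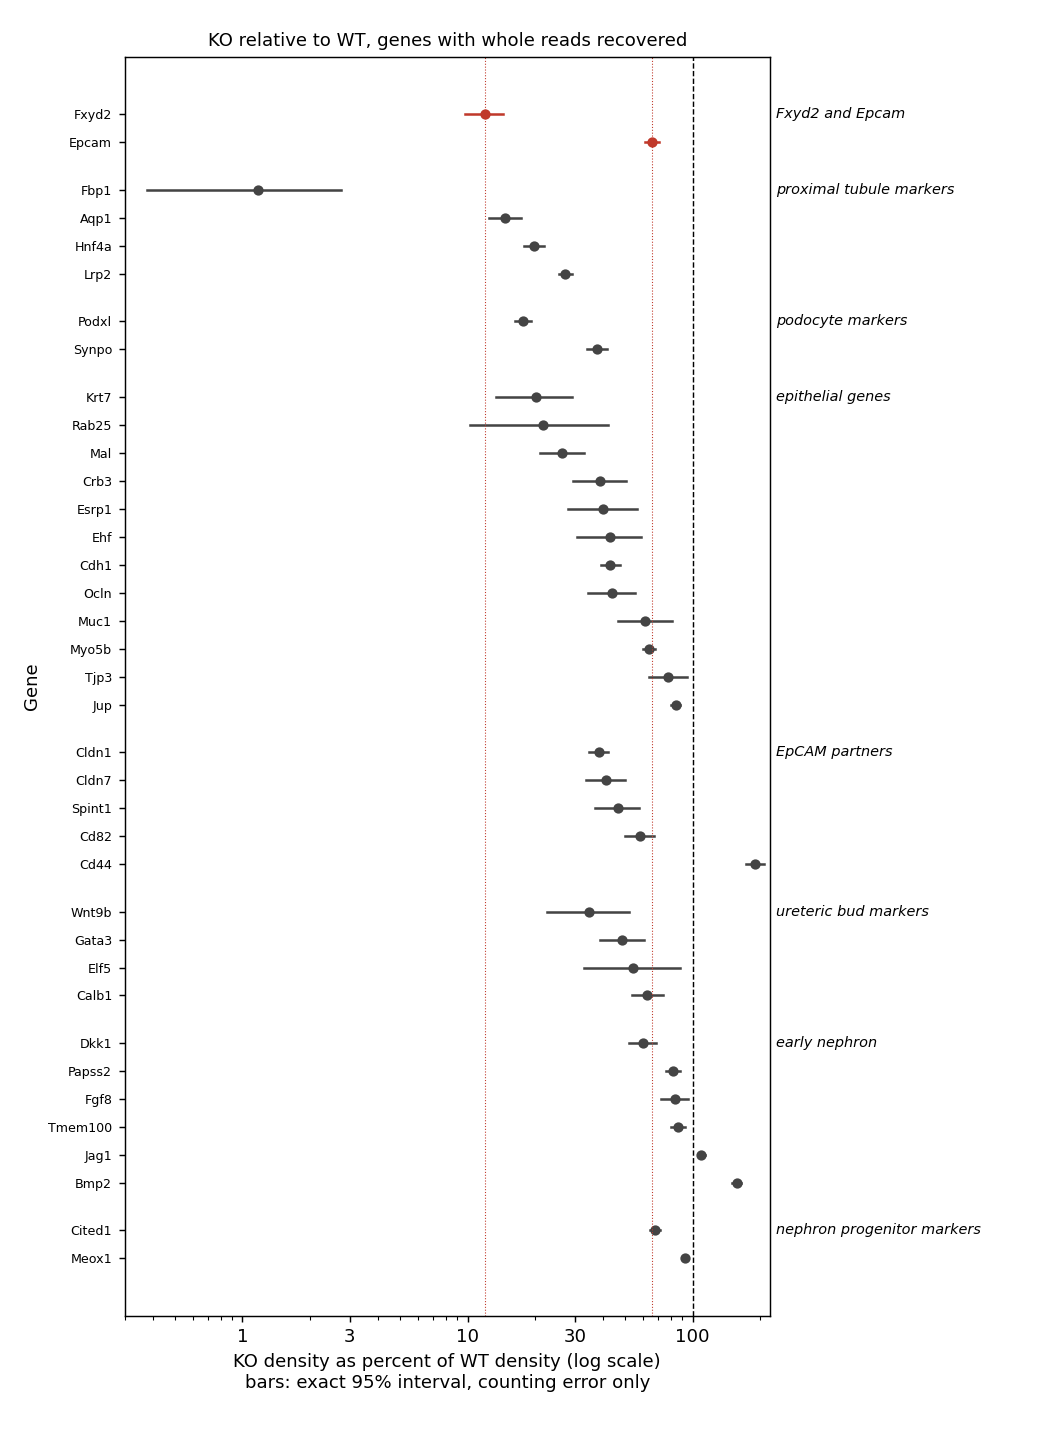
The x axis gives the KO density as percent of the WT density on a log scale for Fxyd2 and Epcam (red) and for listed genes whose densities came out as whole reads (dark), grouped by list. Bars are exact 95% intervals of counting error, dotted lines mark the values of Fxyd2 (11.9%) and Epcam (66.1%) and the dashed line marks equal densities. The 4 proximal tubule markers run from 1.17% to 27.2%, on both sides of Fxyd2, and most epithelial genes lie left of Epcam.

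Among listed epithelial genes that reached the table, most were further below their WT level than Epcam was. A low gene reached it only if its libraries differed, so this does not rank epithelial genes in general. Of 30 listed, 24 are in the table, and 19 of these had a KO level at or under 66.1% of WT, that of Epcam. All but 1 of the 24 are under the floor, where 42.1% of listed genes were at or under that percentage. Lower in KO were 22 of the 24, beside 71.9%, and 8 passed 1.5-fold, beside 8.57%. Cldn6, a claudin of embryonic epithelia, is the only one over the floor, at 10.3 RPKM in KO and 22.4 RPKM in WT. Cdh16, the kidney cadherin, was at 1.92 RPKM in KO and 6.06 RPKM in WT, and the keratin gene Krt8 at 1.88 RPKM in KO and 5.41 RPKM in WT. Cdh1, which codes for E-cadherin, was at 1.44 RPKM in KO and 3.33 RPKM in WT. Its KO level was 43.2% of WT with an interval of 39.1% to 47.7%, below that of Epcam. The median KO level of the 24 was 44.2% of WT, beside 66.1% for Epcam and 73.6% for listed genes under the floor. Of all listed genes, 22.4% had a KO level at or below the Epcam percentage, and of genes over the floor 2.62%. Genes of the list that were higher in KO were the transcription factor genes Ovol1 (5.42 RPKM in KO and 4.52 in WT) and Grhl1 (2.05 in KO and 1.48 in WT). Jup, plakoglobin of junctions, was at 5.36 RPKM in KO and 6.36 RPKM in WT.

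Of 14 listed membrane partners of EpCAM, 12 are in the table, 10 of them under the floor. In KO 11 were lower, beside 71.9% of listed genes under the floor, and 7 passed 1.5-fold, beside 8.57%. Their median KO level was 43.8% of WT, beside 73.6% under the floor. Cldn7, the claudin that binds EpCAM directly, was at 0.851 RPKM in KO and 2.07 RPKM in WT (41.1%, interval 33.6% to 50.02%). Cldn1 was at 2.01 RPKM in KO and 5.27 RPKM in WT (38.2%, interval 34.7% to 42.1%). Both intervals lie below that of Epcam. The serine protease prostasin gene Prss8 was at 2.40 RPKM in KO and 6.44 RPKM in WT. Spint2, an inhibitor of the protease matriptase that cleaves EpCAM in intestinal epithelium, was at 18.0 RPKM in KO and 27.6 RPKM in WT (65.2%), the percentage closest to that of Epcam in the list. The tetraspanin gene Cd81 was at 40.7 RPKM in KO and 49.3 RPKM in WT. Cd44, a hyaluronan receptor that forms complexes with EpCAM in tumour cells, was the exception, at 2.10 RPKM in KO and 1.11 RPKM in WT (189%, interval 172% to 208%).

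Most genes of EpCAM cleavage and signalling were within 1.5-fold. Cleavage by ADAM proteases and gamma-secretase frees the intracellular part of EpCAM, which binds FHL2 and beta-catenin in human tumour cells. Of 11 listed, 6 are in the table, 1 was past 1.5-fold lower in KO and none past 1.5-fold higher, beside 5.49% and 0.951% of all listed genes. This was Fhl2, at 8.08 RPKM in KO and 13.9 RPKM in WT (58.0%, interval 53.8% to 62.5%). Adam10 was at 89.5 RPKM in KO and 68.7 RPKM in WT, and Ctnnb1, which codes for beta-catenin, was at 192 RPKM in KO and 176 RPKM in WT. The gamma-secretase genes Ncstn (23.3 RPKM in KO and 27.2 in WT), Aph1a (10.6 in KO and 11.6 in WT) and Psen2 (3.18 in KO and 4.01 in WT) were all within 1.5-fold.

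**Figure D3:**
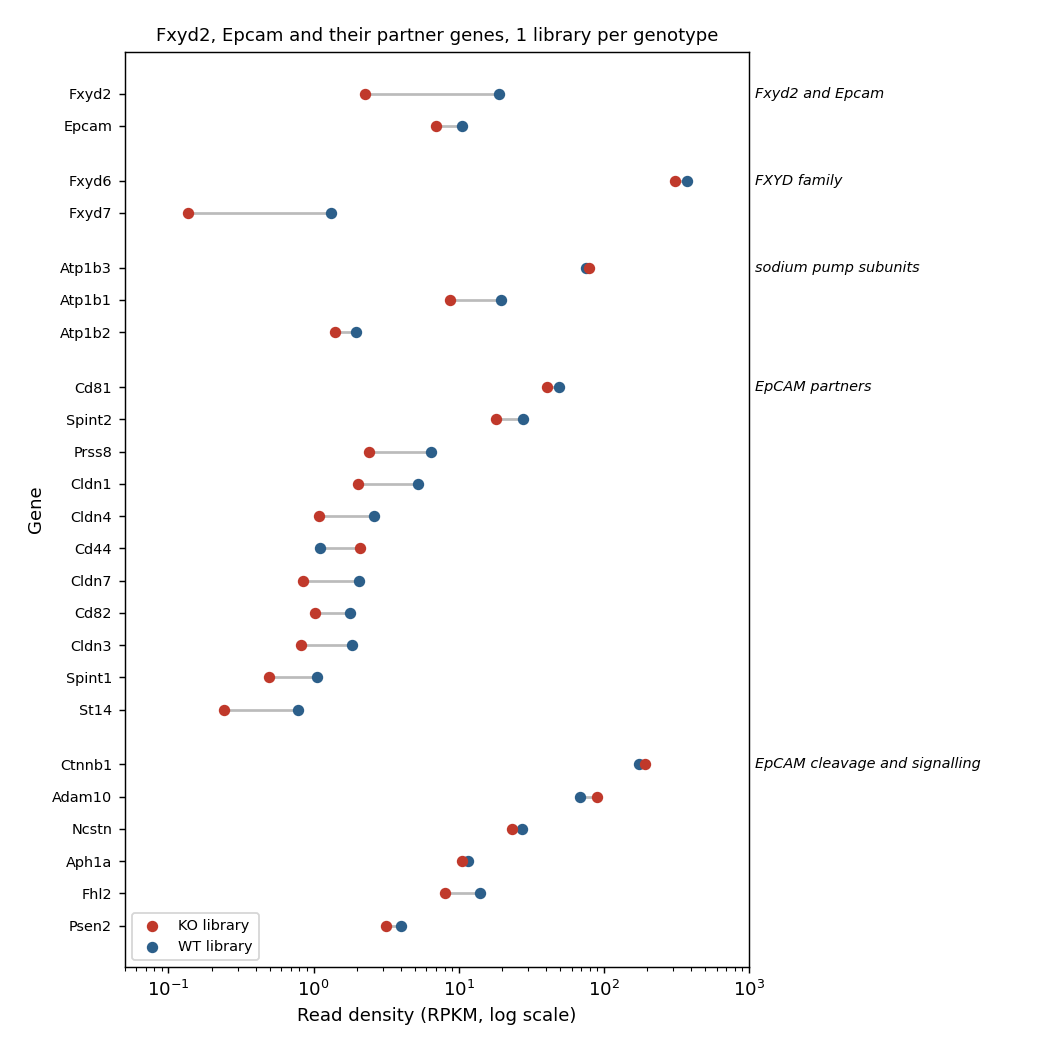
Read density (RPKM, log scale) of Fxyd2 and Epcam and of listed genes among the FXYD family, sodium pump subunits, EpCAM partners and EpCAM cleavage and signalling genes in the KO library (red) and the WT library (blue), 1 value per library, joined by a grey line. Fxyd2 has a long line between 2.25 in KO and 18.9 in WT, while the pump subunit gene Atp1b3 and the signalling gene Ctnnb1 have nearly coinciding points, and Cd44 and Adam10 are plainly further right in KO.

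Early nephron genes mark the step between progenitor and tubule. Of 20 listed, 15 are in the table, 9 of them over the floor. In KO 9 were lower, beside 63.9% of all listed genes, and 6 were higher. The median KO level was 83.5% of WT, and the summed density was 329 RPKM in KO and 312 RPKM in WT. Of that sum, Ccnd1 made up 174 RPKM in KO and 159 RPKM in WT. Past 1.5-fold were 3 lower in KO and 1 higher, beside 5.49% and 0.951% of all listed genes, and none was as low relative to WT as Fxyd2. Lfng, a Notch modifier, was at 5.87 RPKM in KO and 11.4 RPKM in WT, and the transcription factor genes Osr2 and Pou3f3 were at 54.2% and 46.4% of WT. Bmp2, a growth factor gene, was higher in KO, at 15.6 RPKM against 9.95 RPKM in WT. Hey1, a Notch target, was at 35.6 RPKM in KO and 26.2 RPKM in WT.

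The ureteric bud is an epithelium that carries EpCAM. Of 12 listed markers, 11 are in the table, 10 of them under the floor. All 11 were lower in KO, beside 71.9% of listed genes under the floor, and 1, the transcription factor gene Emx2, was past 1.5-fold, beside 8.57%. Their median KO level was 54.3% of WT, beside 73.6% under the floor. Their summed density was 37.9 RPKM in KO and 46.0 RPKM in WT, of which Hoxb7 made up 28.6 RPKM in KO and 31.0 RPKM in WT. Wnt11, the signal of the bud tip, was at 2.52 RPKM in KO and 3.09 RPKM in WT, and the bud's receptor gene Ret at 0.305 RPKM in KO and 0.445 RPKM in WT (68.6%). Calb1 had 63.0% of its WT level (interval 53.6% to 74.004%), overlapping that of Epcam, and Gata3 48.6% (interval 38.6% to 60.8%). The water channel gene Aqp2 was at 26.9% and the transcription factor gene Tfap2b at 43.5%.

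Markers of other cells the sort could hold were lower in KO beside Fxyd2 and Epcam. All 8 stroma markers were lower, beside 63.9% of all listed genes, and 7 passed 1.5-fold, beside 5.49%. Their summed density was 125 RPKM in KO and 264 RPKM in WT. The 6 endothelium and 6 leukocyte markers, all under the floor, were all lower, beside 71.9% there. Past 1.5-fold were 3 and 4 of them, beside 8.57%. The endothelium markers summed to 1.21 RPKM in KO and 5.41 RPKM in WT, and the leukocyte markers to 1.51 RPKM in KO and 11.4 RPKM in WT. All 6 erythroid markers were lower and 5 passed 1.5-fold, beside 63.9% and 5.49% of all listed genes. They summed to 23.5 RPKM in KO and 630 RPKM in WT, mostly from globin genes, which are close copies and may exchange reads. No marker of these 4 lists that is in the table was at 0 in either library. Their part in the Fxyd2 and Epcam differences was not tested.

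By distance over log2(density + 1) in the 2 libraries, the genes nearest to Fxyd2 included Ttc36, Ntn1, Cd248 and Thy1, at distances of 0.47 to 0.65. Ttc36 was at 2.12 RPKM in KO and 13.4 RPKM in WT. Ntn1, which codes for the guidance factor netrin and is on the stroma list, was at 3.84 RPKM in KO and 19.0 RPKM in WT. The surface protein genes Cd248 and Thy1 were at 25.6% and 24.3% of WT. The genes nearest to Epcam were Adam19, Pgm2, Olfml1, Pth1r and Arsb, at distances of 0.047 to 0.091, with KO levels from 62.0% to 68.3% of WT. Likeness over 2 libraries is a description of 2 values per gene.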

How the data were processed

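Messenger RNA of sorted nephron progenitor cells was sequenced in 1 KO and 1 WT library. The submitters' processing notes name CASAVA 1.8, Novoalign 2.08.02 and FastQC and the builds GRCm38 and mm10. The sources used here do not give counting rules, strand or the treatment of multiply aligned reads. Columns deposited by the authors hold, per the file headers, the read density of each library, raw and corrected p-value, a fold ratio without sign and a signed fold change, here called a score. The deposited density behaves as RPKM, a reading from the values.

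Of genes at 0 in 1 library, 70 with KO reads and 150 with WT reads had deposited fold ratios that were whole multiples of a step. With GENCODE vM21 exon lengths, 43 and 89 of them gave the same depth within 0.001%, namely 85640522 reads in KO and 91224360 in WT. A gene's reads were accepted when a GENCODE length gave whole reads in both libraries within 0.001 of a read plus 3e-07 of the count, up to 20000 reads. This held for 62 of 156 listed genes, and intervals are printed only for these and for Fxyd2 and Epcam. Whether a read is an independent molecule is unknown, so intervals cover counting error only.

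Differences were taken as log2(KO + 1) minus log2(WT + 1) of the deposited densities, with the 50th percentile of mean density as floor and 1.5-fold as size rule. No test across genes was made. Both genes and the 18 lists were chosen with earlier results of these data known. Named were both genes, Trp53, Six2 and Cited1, all listed genes of lists with at most 6 in the table, otherwise the 4 highest by mean density and the 4 with the largest difference, the 5 nearest genes that are neither predicted genes nor pseudogenes, and genes within 500 kb. Named outside this rule, with values seen, were Cdh1, Grhl1, Cd44, Ret, Snai1, Zeb1 and Zeb2. Some genes and 1 list covered by these rules are not reported here, though their genes stay in the counts given for other lists. Alternatives were other pseudocounts, centring, the authors' scaling, a correction for GC content (10 bins) and length (4 bins), other floors and a 2-fold rule. The scripts were tested on simulated data and run with Python 3.11.15 and SciPy 1.17.1.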

Additional observations from a re-analysis of the deposited data

How the results depend on the processing

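The Fxyd2 difference of -2.62 and the Epcam difference of -0.53 stayed negative under all 6 alternatives. Fxyd2 was at -2.94 with a pseudocount of 0.25, -1.88 with one of 4 and -3.07 with none, an alternative chosen after seeing the data, and stayed at least 1.5-fold lower in each. Epcam was at -0.41 with a pseudocount of 4 and at -0.60 with none, where it passes 1.5-fold, and its other values, such as -0.45 when corrected for GC content and length, lay within its counting interval. Of the main 35 genes higher and 128 lower, a pseudocount of 4 gave 22 higher, centring 54 higher, no floor 101 and 583, the 75th percentile as floor 17 and 42 and the 2-fold rule 10 and 46. Of 750 alternative values of other named genes, 394 left their counting interval and no called one changed sign. List counts of genes at least 1.5-fold lower depend most on the pseudocount (none, 0.25, main, 4). They were 19, 13, 8 and 4 for epithelial genes, 10, 10, 7 and 2 for EpCAM partners (4 after centring), 8, 5, 1 and 0 for ureteric bud, 6, 6, 3 and 0 for endothelium, 5, 5, 3 and 2 for early nephron genes, 5, 2, 1 and 0 for distal magnesium transport, 5, 3, 0 and 0 for loop and distal tubule, and 8, 7, 6 and 4 for proximal tubule. No paired analysis was possible because there is 1 library per group.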

Other observations

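Podocytes form from the same S-shaped body as the proximal tubule, and their markers are under the floor. Of 6 listed podocyte markers, 5 are in the table and all 5 were lower in KO, beside 71.9% of listed genes under the floor. Podxl, which codes for podocalyxin of the podocyte surface, was at 1.59 RPKM in KO and 8.99 RPKM in WT (17.7%, interval 16.3% to 19.1%). Nphs1, which codes for nephrin of the slit diaphragm, was at 0.0221 RPKM in KO and 0.303 RPKM in WT, 7.30% of its WT level. That percentage rests on an estimated 13 reads in KO and 183 reads in WT. Synpo, an actin regulator, was at 37.7% of WT and the phosphatase gene Ptpro at 77.3%.

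Of 12 listed mesenchymal genes, 11 are in the table. In KO 7 were lower, beside 63.9% of all listed genes, and 4 were higher, with a median KO level of 82.9% of WT. Past 1.5-fold were 4 lower in KO and 0 higher, beside 5.49% and 0.951% of all listed genes. Vim, which codes for vimentin, was at 37.3 RPKM in KO and 61.3 RPKM in WT, and the matrix gene Fn1 at 22.1 RPKM in KO and 35.7 RPKM in WT. Cdh11 was at 118 RPKM in KO and 111 RPKM in WT, and Cdh2, which codes for N-cadherin, at 18.8 RPKM in KO and 16.6 RPKM in WT. Twist1 and Twist2, regulators of mesenchyme, were at 34.2% and 36.9% of their WT levels.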
